A study of Capra hircus with 6 samples.

Results

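Cytosolic ribosomal protein genes encode the protein part of the ribosome that translates messenger RNA in the cytoplasm, and the regions described here are those of the authors' deposited table of differing chromatin whose centre lay inside such a gene or within 10000 bp of one of its ends. The list named 56 genes, of which 55 were found by symbol in the RefSeq gene table of the goat assembly ARS1.2 (*RPL34* was not matched), and they held 170 of the 30714 listed regions. Chromatin that the Tn5 transposase can cut was measured with ATAC-seq in goat mammary epithelial cells, with 3 libraries from the lactation period and 3 from the dry period between lactations. The labels give the period as the treatment and name no drug, genotype or age, and they do not say whether each library came from its own goat. The authors' p-values therefore rest at most on the spread among 6 libraries, and that spread may be technical. The table holds a fold change, a p-value and a false discovery rate (FDR) for each region, each listed at a p under 0.001, and no value per library, so neither the depth of a library nor its cell type markers could be checked.

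Every fold change in the table is above 1, and the region names divide the table in 2. Set 1 has 22884 regions and set 2 has 7830, and a set is read here as the regions with more signal in 1 period than in the other. The region names carry a prefix numbered 1 or 2, and the table's title lists the dry period libraries before the lactation ones, so set 1 would be the dry period if the numbering follows the title. Neither the table nor the labels state that it does, and directions are therefore written as set 1 or set 2.

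A ribosome has a large subunit, which joins amino acids, and a small subunit, which reads the messenger RNA. Each ribosome needs 1 copy of nearly every ribosomal protein, and their genes are short, are transcribed in every cell type and are known in mammals for a shared promoter type that starts at a run of pyrimidines, the source of the 5′ terminal oligopyrimidine tract through which mTOR controls their translation. In the lactating gland, protein synthesis for milk is a main load on this machinery. Many of these genes also carry small nucleolar RNAs (snoRNAs) in their introns.

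Listed regions at ribosomal protein genes were in set 1 almost without exception. Of the 170 regions, 169 were in set 1 and 1 was in set 2, so that set 1 took 99.4% (Wilson interval at the 95% level, 96.7% to 99.9%). The interval is for counting error alone and treats regions that share a gene as separate. Over all 22150 listed regions inside or within 10000 bp of any of 19063 protein-coding genes on the numbered chromosomes, 77.4% were in set 1, and 74.5% of the whole table was. Protein-coding genes no longer than the longest of these ribosomal protein genes, 13269 bp, stood between, with 91.0% of 6632 regions in set 1. These shares are given side by side as a description, and no test of the list was made.

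A listed set 1 region was found at 50 of the 55 genes (90.9%), against 52.0% of all protein-coding genes and 46.3% of those of up to 13269 bp. With only the regions nearest to the gene counted, the number fell to 31 of the 55 (56.4%), against 43% of all protein-coding genes and 32.7% of those of up to 13269 bp. Within 3000 bp it was 33 (60%), against 43.2% and 34.5%. Set 2 was represented at 1 of the 55 genes (1.82%), against 19.4% of all protein-coding genes and 8.35% of those of up to 13269 bp. With an FDR under 0.05, 31 genes (56.4%) had a set 1 region, against 28.0% of all protein-coding genes and 25.3% of those of up to 13269 bp. For set 2 at this FDR the count was 0, against 2.47% of all protein-coding genes and 0.916% of those of up to 13269 bp, shares too low for a count of 0 in 55 genes to stand apart from them. The 31 genes carried 63 such regions, all in set 1. A count of 0 in 63 allows a set 2 share of up to 4.76%, a bound that treats regions sharing a gene as separate and is therefore too tight.

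Among the regions that were listed, the share that passed the FDR was close to the background. Of the 169 set 1 regions at ribosomal protein genes, 63 (37.3%) had an FDR under 0.05, against 34.2% of all listed set 1 regions. In set 2 the single region did not pass, where 9.23% of all listed set 2 regions did. Sizes were near the background too. The median fold change of the set 1 regions in the authors' deposited table was 2.26 (interquartile range 1.72 to 3.02) at ribosomal protein genes, against 2.39 (1.87 to 3.23) over all of set 1, and the median width was 300 bp in both.

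**Figure D1:**
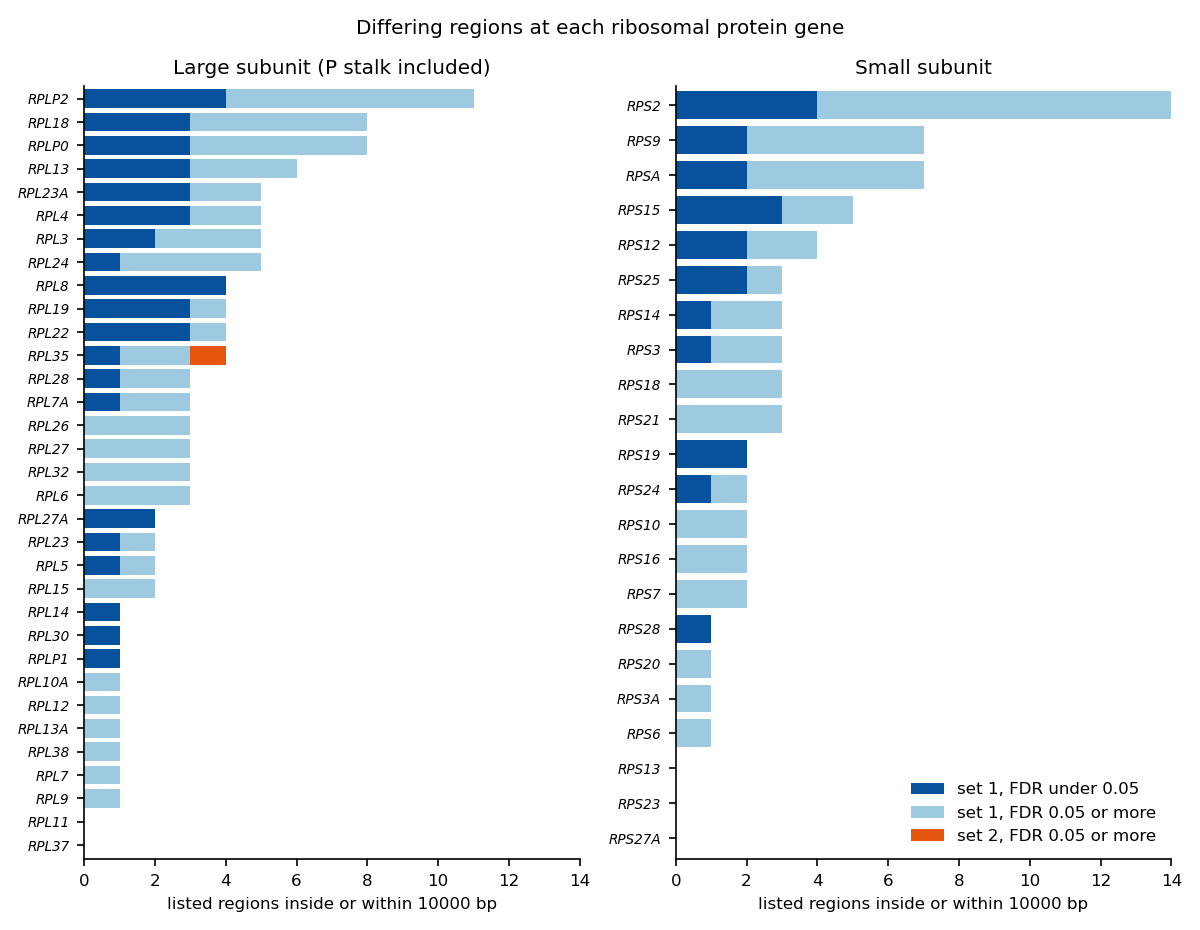
Number of listed regions inside or within 10000 bp of each of the 55 genes, with large subunit genes on the left and small subunit genes on the right; dark blue bars are set 1 regions with an FDR under 0.05, light blue bars set 1 regions with a higher FDR, and orange the 1 set 2 region, at *RPL35*. Bars reach 14 regions at *RPS2* and 11 at *RPLP2*, and 5 genes have none.

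Regions were also close together. The windows of the 55 genes covered 1.324 Mb and held 12.8 listed regions per 100 kb, against 4.13 per 100 kb for protein-coding genes of up to 13269 bp and 1.80 for all protein-coding genes. With only the regions nearest to a gene of the group, the density was 5.06 at ribosomal protein genes, against 3.25 and 1.80. This kept 67 of 170 regions at ribosomal protein genes and 5210 of 6632 at the shorter genes. A small group loses more regions to neighbours outside it, and the windows were kept whole, so these falls are not comparable between groups. The 1.80 is unchanged by construction, since every region at a protein-coding gene is nearest to some such gene. Set 1 regions alone came to 12.8 per 100 kb at ribosomal protein genes, against 3.76 and 1.39 in the same groups of genes. For set 2 the values were 0.0755 per 100 kb, against 0.371 and 0.406. Of the 55 genes, 12 had 5 or more regions, 25 had 2 to 4, 13 had 1 and 5 had none. The 12 genes with most regions held 86 of the 170.

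Set 1 density stayed high over several kilobases outward from the genes. All protein-coding genes, the comparison here, had a median length of 17760 bp, against 3806 bp for the 55 genes. The densities below were not matched for length. Inside the genes there were 13.8 set 1 regions per 100 kb of gene, against 1.18 over all protein-coding genes. Outside, the density was 17.3, 18.2 and 17.3 per 100 kb in the bins of 0 to 1000, 1000 to 2000 and 2000 to 3000 bp from a gene end, against 5.82, 4.26 and 3.52 at all protein-coding genes. It was 14.5 at 6000 to 7000 bp and 7.27 at 9000 to 10000 bp, against 3.06 and 2.79. At 40000 to 50000 bp it was 3.45, against 2.36. The 1 set 2 region lay in the bin of 9000 to 10000 bp, and set 2 reached 0.909 per 100 kb at 40000 to 50000 bp, against 0.40 at all protein-coding genes. Without strands in the gene table, a gene's start was not distinguished from its other end.

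**Figure D2:**
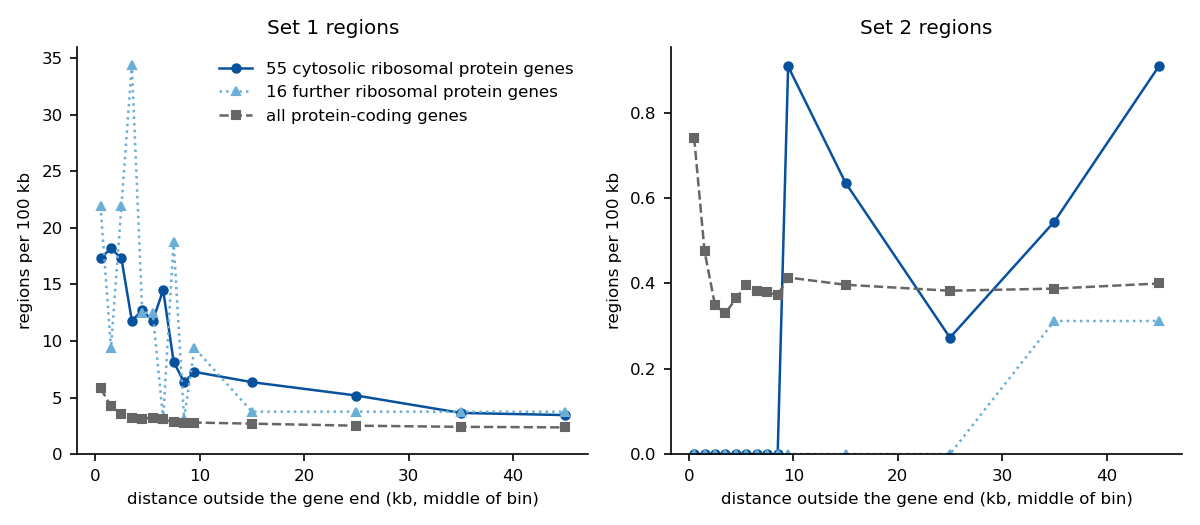
Listed regions per 100 kb by distance outside the nearer gene end, counted per region and gene, for set 1 (left) and set 2 (right); circles are the 55 ribosomal protein genes, triangles 16 further ribosomal protein genes and squares all protein-coding genes. Set 1 density at the 55 genes stays above that at all protein-coding genes in every bin and nears it beyond 30 kb, while their set 2 points are at 0 up to 9000 bp and rest on 1 region in the next bin.

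Most of these regions lay near other genes as well. A further protein-coding gene had 146 of the 170 regions inside it or within 10000 bp, and 103 regions, 40 of them with an FDR under 0.05, were nearer to it than to the ribosomal protein gene. Which gene a region serves cannot be told apart from this table. The 67 regions for which the ribosomal protein gene was the nearest protein-coding gene, at 31 genes, were all in set 1, and 34.3% of them passed the FDR. The 24 regions with no other protein-coding gene in the window, at 9 genes (*RPL3*, *RPL6*, *RPLP1*, *RPS10*, *RPS12*, *RPS14*, *RPS20*, *RPS24* and *RPSA*), were all in set 1 too, 8 of them with an FDR under 0.05. A transfer RNA gene was within 10000 bp of 3 regions, and a long noncoding RNA gene within 10000 bp of 34.

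The P stalk of the large subunit, a flexible arm that recruits the elongation factors, is made of the products of *RPLP0*, *RPLP1* and *RPLP2*. All 3 genes had a set 1 region with an FDR under 0.05. *RPLP2* had 11 set 1 regions over 21.6 kb, the second highest number, with fold changes in the authors' deposited table from 1.24 to 1.91. The strongest by p, on chromosome 29 from 45711101 to 45711800, had 1.72-fold (FDR = 0.00224) in the authors' deposited table and lay 148 bp from *PIDD1*. Among the *RPLP2* regions, only the one from 45707901 to 45708200, inside the gene, had *RPLP2* as its nearest protein-coding gene. The others lay inside or nearer to *PNPLA2*, *PIDD1*, *SLC25A22* or *CRACR2B*. *RPLP0*, on chromosome 17, had 8 regions in the authors' deposited table, from 1.37-fold to 4.49-fold, and the 3 that passed lay nearer to *PXN* or inside *GCN1*. *RPLP1* had a single region, 5474 bp from the gene on chromosome 10 at 84896501 to 84896900, with a fold change of 1.52 (FDR = 0.00396) in the authors' deposited table and no other protein-coding gene in the window.

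*RPL5* and *RPL11* encode proteins that form a particle with the 5S ribosomal RNA and bind the p53 regulator MDM2 when ribosome assembly fails. They stood apart from each other in this table. *RPL5* had 2 set 1 regions, both inside the gene, and the one on chromosome 3, from 69935601 to 69935800, had 3.11-fold (FDR = 0.0405) in the authors' deposited table. *RPL11* had no listed region.

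In the body of the large subunit, the lowest p belonged to *RPL23*, whose free protein also binds MDM2. Its region on chromosome 19, from 39085601 to 39086200, had 2.08-fold (FDR = 0.000104) in the authors' deposited table but lay 6776 bp from *RPL23* and 923 bp from *C19H17orf98*. *RPL27A* followed with a region 421 bp from the gene on chromosome 15, from 38511101 to 38511700, with 2.29-fold (FDR = 0.000184) in the authors' deposited table. A second *RPL27A* region, 2321 bp away, had 3.43 (FDR = 0.00584) in the same authors' deposited table. *RPL27A* was therefore the nearest gene to both of its regions.

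*RPL8*, whose protein contacts the peptidyl transferase centre, was the gene with 4 listed regions that all passed the FDR. They lay on chromosome 14 between 81612701 and 81619200, and in chromosome order the authors' deposited table gave them 2.34, 2.24, 2.12 and 1.39-fold. The second, at 81614101 to 81614400, lay inside the gene and had the lowest FDR, 0.000721. The first 3 were nearest to *RPL8* and the last was nearer to *ZNF34*.

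*RPL3* and *RPL4* encode the largest proteins of the subunit's core, and the *RPL4* protein lines part of the exit tunnel. *RPL3* had 5 set 1 regions on chromosome 5 with no other protein-coding gene in the window, of which 2 passed the FDR. These had fold changes of 1.85 at 1825 bp from the gene (FDR = 0.00382) and 2.16 inside it (FDR = 0.0363) in the authors' deposited table. *RPL4* also had 5, of which 3 passed, led in the authors' deposited table by a region of 2.10-fold (FDR = 0.00122) that lay inside the neighbouring *ZWILCH*.

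On chromosome 18, 7 of the genes together held 29 regions. The 2 widest regions of all were there, of 1200 bp at *RPL13* and 1100 bp at *RPL18*. The *RPL13* one, at 15902101 to 15903300 and inside *CPNE7*, had a fold change of 1.97 (FDR = 0.000794) in the authors' deposited table. *RPL13* had 6 regions in all, and 1 of them lay inside *RPL13* with a fold change of 2.95 (FDR = 0.0154) in the authors' deposited table. The wide *RPL18* region, 1185 bp from the gene and 231 bp from *FAM83E*, had 1.53 (FDR = 0.00268) in the authors' deposited table, and a region inside *RPL18* had 3.6 (FDR = 0.0395). *RPL28* passed with 1 of 3 regions, at 2.05-fold (FDR = 0.0228) in the authors' deposited table, inside the neighbouring *TMEM238*.

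On chromosome 19, 6 of the genes held 18 regions. *RPL19*, whose protein forms a bridge between the subunits, had 4, of which 3 passed, with a fold change of 2.79 for the lowest p (FDR = 0.000944) and 4.16 for the highest fold (FDR = 0.00183) in the authors' deposited table. The first of these was nearer to *STAC2* than to *RPL19*. The second lay inside *STAC2* and was the largest fold change among the 63 regions that passed. *RPL23A* had 5 regions, all on the same side of the gene, and the 3 that passed had 1.48, 1.61 and 3.6 in the authors' deposited table. All 3 lay inside a neighbour, *TLCD1* or *NEK8*. *RPL26*, *RPL27* and *RPL38* had regions but none with an FDR under 0.05.

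Among the remaining large subunit genes, *RPL22* had 3 of 4 regions past the FDR, with fold changes of 2.55 (FDR = 0.000695), 3.79 (FDR = 0.00631) and 2.26 (FDR = 0.0185) in the authors' deposited table. Only the last of those 3 was nearest to *RPL22*, at 622 bp, and the first 2 were nearer to *CHD5*. *RPL7A* and *RPL35* passed with 1 region each, at 1.53-fold (FDR = 0.00346) and 1.78-fold (FDR = 0.00492) in the authors' deposited table. These lay inside the neighbours *SURF2* and *WDR38*. *RPL14*, *RPL24*, another bridge protein, and *RPL30* also passed with 1 region each, at 1.73-fold (FDR = 0.00547), 1.82-fold (FDR = 0.0144) and 2.49-fold (FDR = 0.0326) in the authors' deposited table. The *RPL14* and *RPL24* regions lay 238 bp from *ZNF619* and 472 bp from *ZBTB11*, and the *RPL30* region was nearer to *MATN2*.

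The single set 2 region belonged to *RPL35*, a protein at the peptide exit site. It lay on chromosome 11 at 95380501 to 95380800, 9431 bp from *RPL35* and inside *ARPC5L*, a subunit of the actin-nucleating Arp2/3 complex. In the authors' deposited table it had a fold change of 2.29, p = 9.66e-05 and FDR = 0.277. A set 1 region at *RPL27* with almost the same p in the authors' deposited table, 9.72e-05, had an FDR of 0.0662, so the FDR was not on 1 scale across the sets. The other 3 *RPL35* regions were in set 1.

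*RPS2* led the small subunit and the whole list. Its protein lines the path by which messenger RNA enters the small subunit. It had 14 set 1 regions over 16.8 kb of chromosome 25, whose summed width took 25.6% of that stretch. The region at 1428301 to 1429000 had the lowest p of the 170, with a fold change of 1.96 (p = 4e-10, FDR = 7.95e-06) in the authors' deposited table, and lay 1498 bp from *RPS2* and inside *NDUFB10*, a subunit of mitochondrial complex I. The other 3 that passed had fold changes of 1.70, 3.31 and 2.0 in the authors' deposited table, and the one of 3.31 lay inside *RPS2* (FDR = 0.00239). A narrow region 6248 bp away had the highest fold change at the gene, 8.15, with an FDR of 0.182 in the authors' deposited table. *NDUFB10*, *RPL3L*, *RNF151*, *TBL3*, *NOXO1* and *MSRB1* share regions of this stretch.

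**Figure D3:**
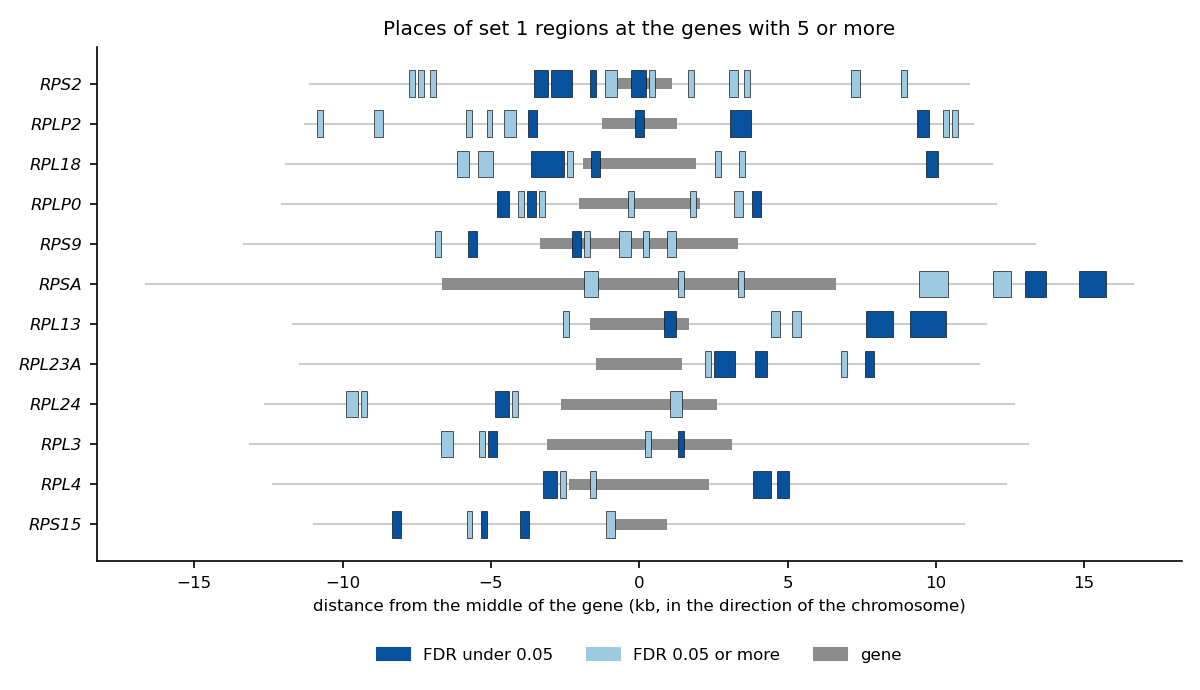
Places of the set 1 regions at the 12 genes with 5 or more, as distance in kb from the middle of each gene; grey bars are the genes, thin lines the windows of 10000 bp on either side, dark blue boxes regions with an FDR under 0.05 and light blue boxes the others. Regions lie on both sides and inside at *RPS2* and *RPLP2*, with their centres on 1 side only at *RPL23A* and *RPS15*, and farthest out at the right of *RPSA*.

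*RPSA*, whose protein also acts as a laminin receptor at the cell surface, was the longest gene at 13269 bp and had 7 regions on chromosome 22. The 2 that passed had fold changes of 1.95 (FDR = 0.0196) and 3.14 (FDR = 0.0340) in the authors' deposited table. Both lay outside the gene at 6736 and 8636 bp, with no other protein-coding gene in the window. *RPS9*, whose protein lies with that of *RPS2* at the entry of the messenger RNA, also had 7 regions, 5 of them inside the gene. The *RPS9* regions that passed had 1.70 (FDR = 0.0265) and 3.21 (FDR = 0.0297) in the authors' deposited table. The first of these lay inside the neighbour *LOC106501822* and the second inside *RPS9*.

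*RPS12*, known in Drosophila for its part in cell competition, had 4 regions on chromosome 9, and 2 passed. The one at 58095001 to 58095600, 3204 bp from the gene and with no other protein-coding gene in the window, had a fold change of 2.71 (FDR = 0.00312) in the authors' deposited table. *RPS15* had 3 of 5 regions past the FDR, at 1.78, 2.79 and 1.89-fold in the authors' deposited table, all nearer to or inside *APC2*. *RPS25*, needed for initiation at viral internal entry sites, had 2 of 3, with 2.17 (FDR = 0.00388) and 2.60 (FDR = 0.00518) in the authors' deposited table, both inside *SLC37A4*, the glucose-6-phosphate transporter of the endoplasmic reticulum.

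*RPS14*, *RPS19* and *RPS24* are known from human anaemias in which loss of 1 copy disturbs red cell formation. *RPS19* had 2 regions, both past the FDR, with fold changes of 1.74 (FDR = 0.0208) and 1.77 (FDR = 0.0244) in the authors' deposited table, the second inside *CD79A*. *RPS14* passed with a region inside the gene, at 1.99-fold (FDR = 0.0223) in the authors' deposited table. *RPS24* passed with 1.70-fold (FDR = 0.00809) at 5475 bp, by the authors' deposited table. *RPS3*, also at the messenger RNA entry, and *RPS28* passed with 1 region each, of 3.02-fold (FDR = 0.0320) and 1.41-fold (FDR = 0.0191) in the authors' deposited table, inside the neighbours *KLHL35* and *KANK3*.

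By subunit, 31 of 33 large subunit genes, P stalk included, had a listed region, and 20 had one that passed the FDR. In the small subunit these numbers were 19 and 11 of 22 genes. The shares were 93.9% and 60.6% in the large and 86.4% and 50% in the small subunit. Over all protein-coding genes they were 59.8% and 29.7%, and over those of up to 13269 bp 50.4% and 26%. The densities of listed regions were 13.1 and 12.4 per 100 kb. All 66 small subunit regions were in set 1, and 103 of 104 large subunit regions were. For the small subunit, a count of 0 allows a set 2 share of up to 4.55% if regions that share a gene are treated as separate. The share of set 1 regions that passed the FDR was 40.8% in the large and 31.8% in the small subunit, on either side of the 34.2% of all listed set 1 regions. Their difference was not tested.

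Of the genes with a listed region, 19 had none that passed. The 10 with the smallest p were *RPS18*, *RPS7*, *RPL38*, *RPL9*, *RPL26*, *RPL27*, *RPL15*, *RPS21*, *RPS20* and *RPL32*. In the authors' deposited table *RPS18* had an FDR of 0.0512 with a fold change of 3.85, inside the gene. *RPS7* had an FDR of 0.0519 with 4.08-fold in the authors' deposited table, 8998 bp from the gene and inside *COLEC11*. For *RPL38*, known in mice for its part in translating Hox messages, the authors' deposited table gave a fold change of 1.93 (FDR = 0.0548). For *RPL9* the authors' deposited table gave 4.09 (FDR = 0.0563). These regions lay 6004 and 7291 bp from the genes, inside *TTYH2* and *KLB*. The lowest FDR of the other 6 ran up to 0.0893, at *RPL32*. The further 9 were *RPL6*, *RPL7*, *RPL10A*, *RPL12*, *RPL13A*, *RPS3A*, *RPS6*, the target of S6 kinase downstream of mTOR, *RPS10* and *RPS16*. The highest fold change of all 170 regions in the authors' deposited table, 9.21, was at *RPS10*, 6184 bp from the gene, with an FDR of 0.210. No region was listed at *RPL11*, *RPL37*, *RPS13*, *RPS23* and *RPS27A*, the last of which encodes a ribosomal protein fused to ubiquitin.

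Among the 169 set 1 regions, the 63 that passed the FDR had a median fold change of 2.08 (1.38 to 4.16) and a median width of 400 bp in the authors' deposited table. The 106 that did not pass had a median fold change of 2.45 (1.24 to 9.21) and a median width of 200 bp, and 64 of them had the lowest width listed, 200 bp. Over all set 1 regions the medians were 2.32 and 400 bp for those that passed and 2.44 and 200 bp for those that did not. By these medians, regions that did not pass were narrower and had higher fold changes than those that passed, at these genes and in set 1 as a whole. Read depth per region is unknown, and its part in this was not tested.

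**Figure D4:**
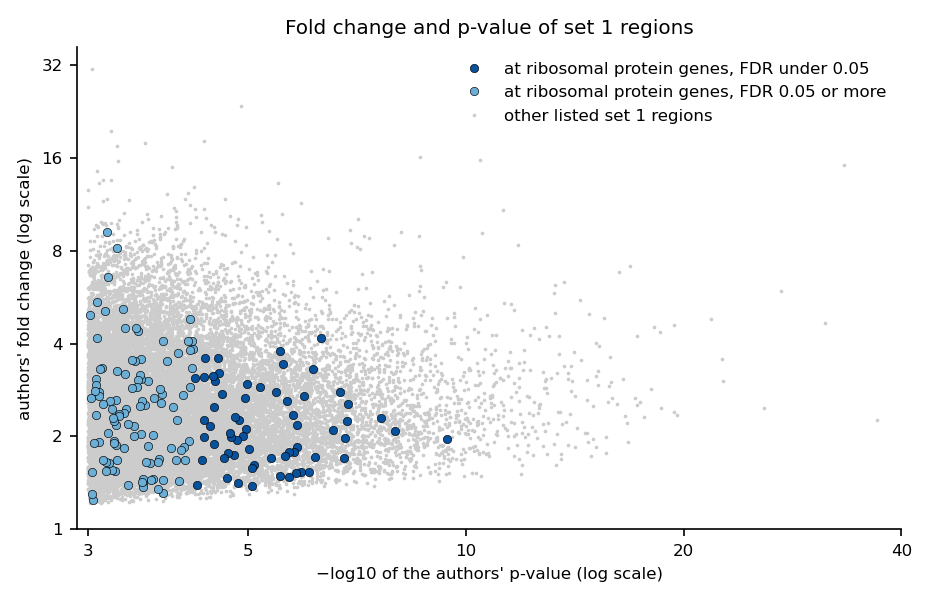
The authors' fold change (vertical, log scale) against −log10 of the authors' p (horizontal, log scale) for each listed set 1 region; dark blue points are regions at ribosomal protein genes with an FDR under 0.05, light blue points those with a higher FDR, and grey points all other set 1 regions. The ribosomal protein regions that passed lie between 1.38-fold and 4.16-fold, within the cloud of the others.

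Cytosolic ribosomal protein genes outside the 56 were examined in the same way. Of 79 cytosolic ribosomal protein genes in a general list of the family, 23 were not among the 56, and 16 of these were placed on a numbered chromosome as protein-coding genes. A listed region was found at 15 of the 16 (93.8%), against 59.8% of all protein-coding genes and 50.4% of those of up to 13269 bp. The 16 genes held 52 regions, all in set 1. A count of 0 in 52 allows a set 2 share of up to 5.77% if regions that share a gene are treated as separate. Their density was 13.9 per 100 kb, close to the 12.8 of the 55 genes. The FDR was passed by 8 of the 52 regions (15.4%). That share was lower than the 37.3% at the 55 genes and the 34.2% of all listed set 1 regions. The difference was not tested. These 8 regions lay at 7 of the 16 genes (43.8%), against 29.7% of all protein-coding genes and 26% of those of up to 13269 bp. Over all 71 placed genes of the family, 65 had a listed region.

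Mitochondrial ribosomal proteins, translation factors, biogenesis factors and the polymerases of ribosomal and transfer RNA had 2.52 to 4.88 listed regions per 100 kb, and each of these lists had set 2 regions. Mitochondrial ribosomal protein genes serve the separate ribosome of the mitochondrion. They had a set 1 region at 42 of 76 genes (55.3%) and a set 2 region at 8 (10.5%). Over all protein-coding genes these shares were 52.0% and 19.4%, and over those of up to 13269 bp 46.3% and 8.35%. In the mitochondrial list, 91 of 104 regions were in set 1 (87.5%), at 3.80 regions per 100 kb. The lowest p there was at *MRPL12*, 2438 bp from the gene, with a fold change of 1.48 (FDR = 1.04e-06) in the authors' deposited table. Of 47 translation factor genes, 31 (66.0%) had a set 1 region and 5 (10.6%) a set 2 region, against the same 52.0% and 19.4%. In this list, 94.6% of 111 regions were in set 1, at 4.88 per 100 kb. The translation factor genes were led by *EIF4B*, a helper of the helicase that unwinds messenger RNA, at 1.88-fold (FDR = 7.42e-07) in the authors' deposited table. *EEF2*, which moves the ribosome along, followed at 1.80-fold (FDR = 3.7e-05) and *EIF4G2* at 1.96-fold (FDR = 0.000107) in the authors' deposited table. These regions lay 5412, 5823 and 5474 bp from the genes in that order.

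Of 49 ribosome biogenesis factor genes, 29 (59.2%) had a set 1 region and 9 (18.4%) a set 2 region, against 52.0% and 19.4% of all protein-coding genes. Their density was 3.19 regions per 100 kb. *NPM1*, a nucleolar chaperone of ribosome assembly, led them in the authors' deposited table with 1.88-fold (FDR = 2.21e-05), before *MYC* with 1.51-fold (FDR = 0.000132). These regions lay 7748 and 5516 bp from the genes. RNA polymerase I and III genes encode the enzymes that make ribosomal and transfer RNA. Of 29 such genes, 17 (58.6%) had a set 1 region and 3 (10.3%) a set 2 region, against the same 52.0% and 19.4%. Their lowest p was at *UBTF*, 6162 bp from the gene, with 1.61-fold (FDR = 0.000132) in the authors' deposited table. Outside the ribosomal proteins, 5 of 14 snoRNA hosts on the list were placed as protein-coding genes, *HSPA8*, *TAF1D*, *EIF4A1*, *EIF4A2* and *CCT6A*, of which *EIF4A1*, *EIF4A2* and *TAF1D* are also in the lists above. All 5 had a set 1 region that passed the FDR, against 28.0% of all protein-coding genes, and none had a set 2 region. Of their 27 regions, at 19.4 per 100 kb, 29.6% passed, against 34.2% of all listed set 1 regions. The lists hold genes of different lengths, with a median of 3806 bp for the 55 ribosomal protein genes, 7204 bp for the mitochondrial ones and 17760 bp for all protein-coding genes, and differences between lists were not tested.

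**Figure D5:**
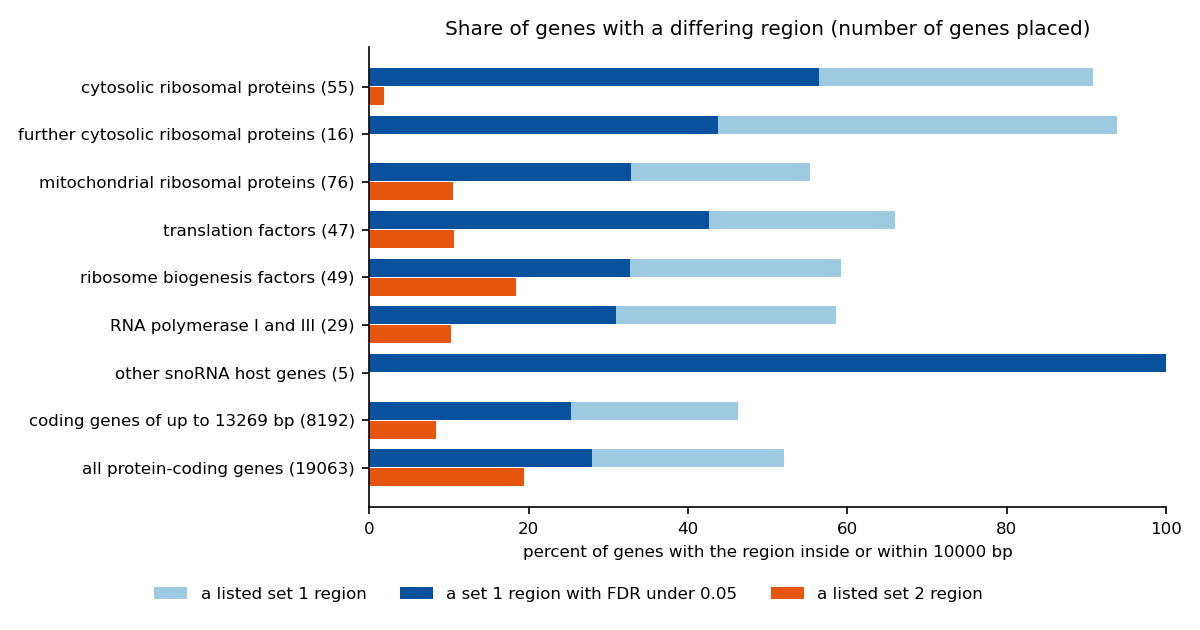
Percent of the placed genes of each list with a set 1 region (light blue for any listed region, dark blue over it for those with an FDR under 0.05) and with a listed set 2 region (orange) inside or within 10000 bp; the number of genes stands beside each name. Set 1 bars reach 90.9% for the 55 ribosomal protein genes and 93.8% for the further 16, and the orange bars are 1.82% and 0.

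At the edge of the 10000 bp rule, the outermost regions inside it lay 9518 bp from *RPS25*, 9623 bp from *RPL28* and 9868 bp from *RPL27*, with fold changes of 1.68, 2.60 and 4.94 in the authors' deposited table. The first outside lay 10085 bp from *RPL18*, 10113 bp from *RPL13* and 10142 bp from *RPL35*, with 1.89, 5.45 and 1.90 in the authors' deposited table. All 6 were in set 1.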

How the data were processed

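The authors deposited 1 table of the comparison of 3 lactation and 3 dry period ATAC-seq libraries, sequenced on a BGISEQ-500 per the labels' protocols. Bowtie2 2.2.5 and MACS2 are named, without a role, in the submitters' processing notes. Not given in the sources used here were the genome build, the program behind the comparison, and any Tn5 shift or removal of duplicates. Per the file headers, the authors' table holds positions and widths (another unit, in bp), a signal value (a score that is a constant multiple of the fold in each set, not used), a fold change (a linear ratio), a p-value and an FDR (a q-value). Starts were counted from 0 and are printed from 1.

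Genes came from the RefSeq table of ARS1.2, which has no strand; none of its coordinates are printed. To check that the regions fit this assembly, their distances to gene ends were used: on 29 of 29 chromosomes, regions lay within 1000 bp of gene ends most often for their own chromosome's genes, and in 58 of 58 pieces, made by splitting each chromosome at its middle, more often than after a move of 100000 bp. Regions on other sequences were not placed. Placement was tested on simulated data. Python 3.11.15 and pandas 2.3.3 were used. A region was called at the authors' FDR under 0.05. No test across libraries, and no test of a list, was made. The members and lists were chosen with earlier results of these data known. Named in full were members with a region past the FDR, the 10 next by p, any with a set 2 region, and up to 3 genes of each other list. Single genes of the further cytosolic ribosomal proteins are not reported here. Planned promoter motifs were not analysed here, since no sequence was used.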

Additional observations from a re-analysis of the deposited data

How the results depend on the processing

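No paired analysis was possible because the table has no value per library; for the same reason no library could be left out, and depth is unknown. Of 59 values under other settings, 34 stayed within 1.5 times or the interval of the reported value, 25 did not and 0 changed direction. Only the set 1 shares could have done so, since counts, densities and fold changes above 1 have no direction to change. Wider or narrower windows moved the counts: with 3000 bp there were 89 regions, 36 of them past the FDR, at 33 and 19 genes, and with 50000 bp 401 and 151 regions, with 7.01 per 100 kb (1.68 at all protein-coding genes). The set 1 share was 100% at 3000 bp and 93.3% at 50000 bp (76.6% at all protein-coding genes in both). Keeping only regions nearest to the ribosomal protein gene left 67 regions at 31 genes, 23 of them past the FDR at 17 genes. Those 23 were 34.3% of the 67, against 34.2% of all listed set 1 regions. The density was then 5.06 per 100 kb (3.25 at protein-coding genes of up to 13269 bp), the median fold change 2.55 and the set 1 share 100%. An FDR under 0.01 left 29 regions at 20 genes, and p under 1e-05 left 34 regions. Listed regions with p under 0.0001 numbered 78 (5.89 per 100 kb). A fold change of at least 2 left 103 regions (7.78 per 100 kb), 34 past the FDR, with a median of 2.79 by construction. For these cut-offs on FDR, p and fold change, no share over all listed regions or genes is given here. The same holds for the FDR counts with the 3000 and 50000 bp windows and for the 17 genes. No difference from the background is therefore read from them. Without *RPS2* and *RPLP2*, a setting chosen after seeing the data as were those for density, 145 regions remained at 11.3 per 100 kb, and 55 passed the FDR.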
